A study of Homo sapiens with 8 samples.

Results

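The genes described here are 40 genes of autophagy and its control from the lysosome, among 18417 genes measured on Affymetrix arrays. They were chosen by name, with earlier results of these data known. Each was read from the probe set that the platform annotation pairs with that gene alone. Where a gene had several such probe sets, the brightest on average was taken. All 40 were found.

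The cells were the breast cancer line HCC1937, whose BRCA1 is truncated, and HCC1937+BRCA1, its derivative with wild-type BRCA1 added back. COH29 inhibits ribonucleotide reductase, which supplies the deoxynucleotides that DNA synthesis needs. The 4 groups, with 2 arrays each, were HCC1937 with 10 µM COH29 for 24 h, HCC1937 without it (control), HCC1937+BRCA1 with 10 µM COH29 for 24 h, and HCC1937+BRCA1 without it (control). All cells grew in medium with 10% serum. For the control arrays neither a vehicle nor a culture time is given in the sources used here. How BRCA1 was introduced, and whether HCC1937+BRCA1 is 1 clone, is not given there either. Whether partner arrays stem from separate cultures is not stated, so every p-value here reflects the spread between these samples alone, and that spread may be technical.

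Autophagy wraps cytoplasm in a double membrane, the autophagosome, which fuses with the lysosome, where the contents are broken down. A kinase complex around ULK1 starts the process, and a lipid kinase complex around PIK3C3 and BECN1 marks the site with phosphatidylinositol 3-phosphate. Conjugation enzymes then couple the small ATG8 proteins to the growing membrane, where cargo receptors bind them. Many of these genes are switched on by stress-responsive transcription factors, such as the MiT/TFE family. RNA levels do not measure the turnover of autophagosomes.

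Values are log2 intensities, so a difference of 1 is a doubling of the signal. A call is an adjusted p under 0.05 in a limma model fitted to all 8 arrays and adjusted with the Benjamini-Hochberg method over 18417 genes. Errors of differences are standard errors of that fit, with 2 arrays per group. Partner arrays had a correlation of 0.996 to 0.997 across genes, each array was most similar to its partner, and the median standard error of a difference was 0.103. BRCA1 itself had mean levels of 10.43 and 10.55 in HCC1937 with COH29 and in control, and of 10.16 and 10.46 in HCC1937+BRCA1 with COH29 and in control, so its level does not check the line labels. Of 6 epithelial markers, the median stood at percentile 98.2 of all genes, with KRT8 at percentile 99.7 and KRT19 lowest at 52.8. Median percentiles of 6 fibroblast, 5 leukocyte and 4 endothelial markers were 28, 13.3 and 31.7, with the highest gene of each at 49.6 (COL1A1), 53.9 (CD14) and 47.5 (PECAM1) by its median over arrays. On single arrays CD14 ranged from percentile 30.4 to 89.6. With COH29, 2 of 4 endothelial markers fell in both lines, PECAM1 (-1.95 in HCC1937 and -1.48 in HCC1937+BRCA1) and CDH5 (-1.28 and -0.50), while VWF (0.25 and 0.05) and KDR (0.13 and 0.14) were not called. Of the leukocyte markers CD14 (-1.13) and ITGAM (-0.37) fell in HCC1937, and none was called in HCC1937+BRCA1, where they were at -0.12 and -0.04. PTPRC (0.03 and -0.01), CD3E (0.32 and 0.42) and LYZ (0.21 and 0.03) were called in neither line, and of the fibroblast markers DCN alone was called, at 0.25 in HCC1937+BRCA1. Of the epithelial markers CDH1 alone was called with COH29, at 0.26 in HCC1937 and 0.35 in HCC1937+BRCA1. Without COH29, HCC1937 minus HCC1937+BRCA1 was 3.77 for CD14, 1.02 for ITGAM, 1.19 for PECAM1 and 1.34 for CDH5, all called. The epithelial markers KRT5 (1.70) and KRT19 (0.82) were called in that comparison too, and the other epithelial markers were not. The mean level of the endothelial list was 6.59 on both HCC1937 COH29 arrays and 7.28 to 7.31 in control, and 6.23 to 6.29 with COH29 and 6.66 to 6.75 in control for HCC1937+BRCA1. That of the leukocyte list was 6.17 to 6.22 with COH29 and 6.32 to 6.44 in control for HCC1937, and 5.36 to 5.39 with COH29 and 5.25 to 5.40 in control for HCC1937+BRCA1. The part of these genes in the results on autophagy genes was not tested. In bulk RNA, fewer cells of a kind and less RNA per cell cannot be told apart.

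Signals of the 40 genes ranked from intermediate to high among all genes. Detection values were not used, so whether each signal lies above background was not tested. TFEB, at percentile 41 to 47.3 on single arrays, lay below the fibroblast marker COL1A1, at 48.1 to 54.3. Their means over the 8 arrays ran between 7.52 for TFEB and 12.81 for SQSTM1, and the lowest percentile reached on any array was 41. The 2 arrays of a group differed little, with a median SD of 0.06 and a largest SD of 0.24.

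In HCC1937, 13 of the 40 genes rose and 3 fell with COH29. The background was 22.7% of all genes called, 10.2% higher and 12.5% lower. A separate fit to the 12892 genes at or above the 30th percentile of level, where all 40 lie, called 35.8% of them (15.4% higher and 20.4% lower) and, of the 40, 13 higher and 4 lower. In HCC1937+BRCA1, 12 rose and 8 fell, against a background of 33.6% called, 13.6% higher and 20.1% lower. The separate fit called 49.9% there (19.4% higher and 30.4% lower) and, of the 40, 15 higher and 9 lower. Backgrounds given by role below are shares over all genes, and those of the separate fit were higher in each direction. The median difference of the 40 genes was 0.09 in HCC1937 and 0.12 in HCC1937+BRCA1, against 0.04 over all genes in each. With each array shifted to one median, the counts in HCC1937+BRCA1 became 18 higher and 5 lower, and after cyclic loess 19 and 5.

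Both lines shared 13 calls, all in the same direction. The matching share of all genes is not given here, so these 13 are not set against a background. The genes higher in both were ULK1, RB1CC1, ATG14, WIPI1, WIPI2, ATG2A, MAP1LC3B, GABARAPL1, SQSTM1 and OPTN. ATG4C, ATG7 and TFEB were lower in both. A further 3 genes were called in HCC1937 alone, 7 in HCC1937+BRCA1 alone and 17 in neither, and a call in 1 line does not show that the effects differ. Without HCC1937 COH29 replicate 2, or either HCC1937 control replicate, the genes called higher in HCC1937 became 8, and without HCC1937 control replicate 1 those called lower became 1. Those called lower in HCC1937+BRCA1 became 3 without HCC1937+BRCA1 COH29 replicate 2 and 2 without HCC1937+BRCA1 control replicate 1.

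**Figure D1:**
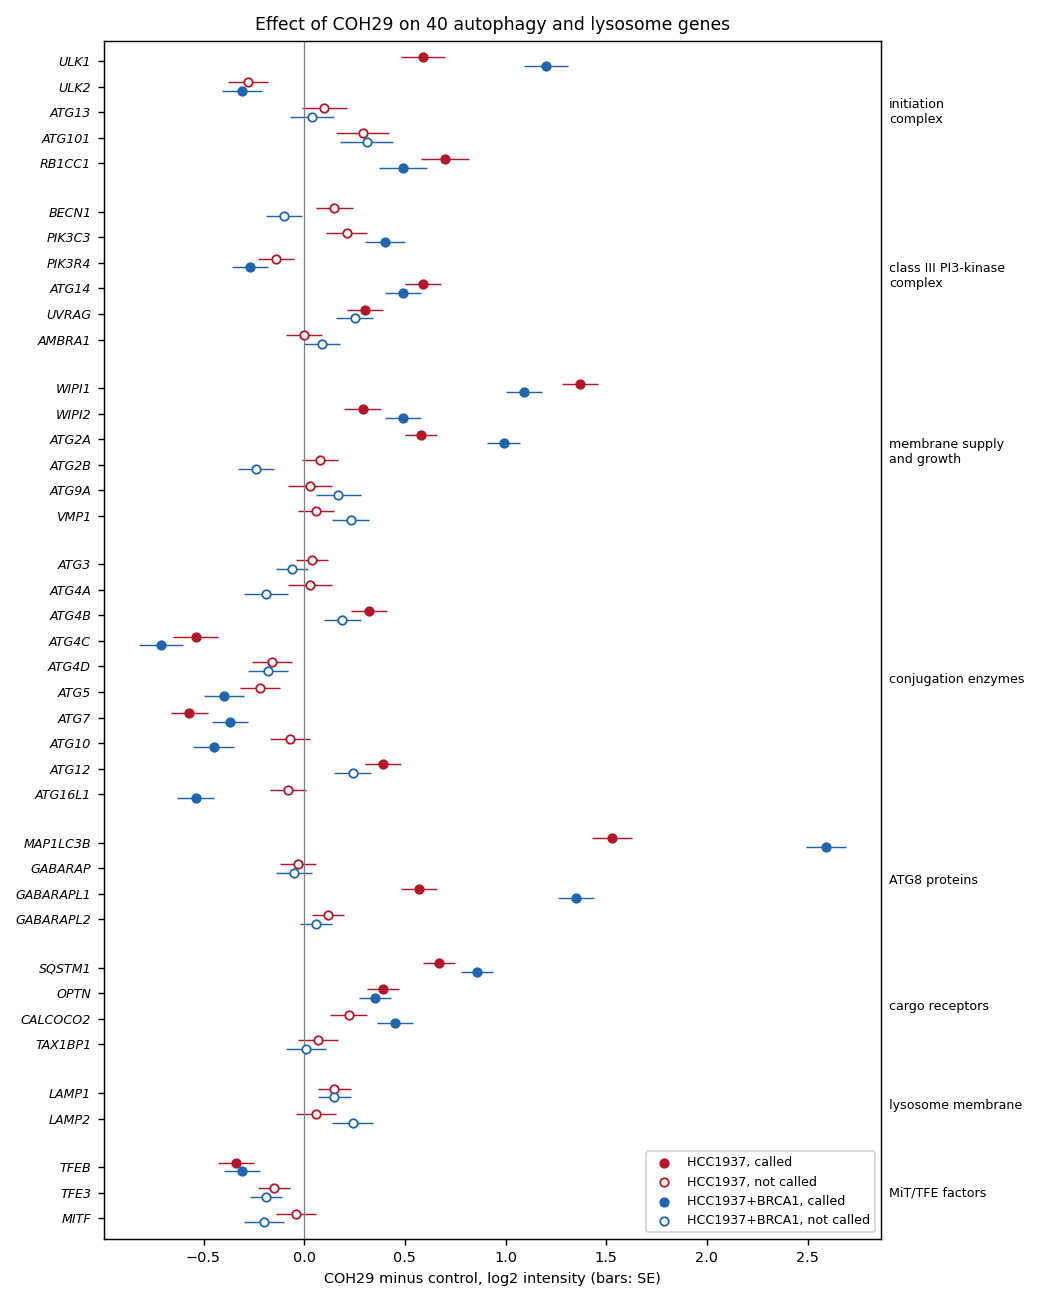
Difference in log2 intensity between COH29 and control arrays for each of the 40 genes, by role, in HCC1937 (red, upper point) and HCC1937+BRCA1 (blue, lower point). Filled points were called (limma adjusted p under 0.05), open points were not, and bars are standard errors with 2 arrays per group. MAP1LC3B lies farthest to the right in both lines, at 1.53 and 2.59. In HCC1937+BRCA1, 5 of 10 conjugation enzymes were called left of 0, beside 20.1% of all genes called lower. A separate fit to genes at or above the 30th percentile of level called 30.4% lower.

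The initiation complex is the kinase ULK1 or ULK2 with the scaffold RB1CC1 (FIP200), the adaptor ATG13 and its partner ATG101. ULK1 and RB1CC1 rose in both lines, ULK2 fell in HCC1937+BRCA1, and ATG13 and ATG101 were not called. ULK1 measured 8.94 and 8.87 with COH29 and 8.39 and 8.24 in control for HCC1937, and 9.25 and 9.45 with COH29 and 8.04 and 8.26 in control for HCC1937+BRCA1. In each line both COH29 arrays lay above both control arrays. The difference was 0.59 ± 0.11 in HCC1937 (1.51-fold, limma adjusted p = 0.00503) and 1.20 ± 0.11 in HCC1937+BRCA1 (2.3-fold, limma adjusted p = 6.81e-05). Such separation, in either direction, was common among the genes described here, with 29 in HCC1937 and 35 in HCC1937+BRCA1. It included genes that were not called, such as GABARAPL2 in both lines, so separation alone does not mark a change. The matching share of all genes is not given here.

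RB1CC1, which holds the complex together, measured 9.68 and 9.76 with COH29 and 9.06 and 8.97 in control for HCC1937. In HCC1937+BRCA1 it measured 8.51 and 8.35 with COH29 and 8.11 and 7.77 in control. Again no COH29 array overlapped its controls, and every HCC1937 array lay above every HCC1937+BRCA1 array. It rose by 0.70 ± 0.12 in HCC1937 (limma adjusted p = 0.00317) and by 0.49 ± 0.12 in HCC1937+BRCA1 (limma adjusted p = 0.0128). ULK2, the second kinase of the family, had values below 0 in both lines, with -0.28 in HCC1937 (limma adjusted p = 0.0664) and -0.31 ± 0.10 in HCC1937+BRCA1 (limma adjusted p = 0.0342). ATG101 differed by 0.29 and 0.31 and ATG13 by 0.10 and 0.04 in HCC1937 and HCC1937+BRCA1, none of them called. In HCC1937+BRCA1 the RB1CC1 call ended without COH29 replicate 1 or control replicate 2 (limma adjusted p = 0.0774 to 0.0794). There the ULK2 call ended without either COH29 replicate, without control replicate 1 and without either HCC1937 control replicate (0.0549 to 0.199), and under the median shift or the replicate block (0.0513 to 0.0687).

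In the class III phosphatidylinositol 3-kinase complex, 2 of 6 genes rose in each line. Over all genes, 10.2% were called higher in HCC1937 and 13.6% in HCC1937+BRCA1. The gene of the complex that rose in both lines was ATG14, the subunit that directs the kinase to autophagosome sites. ATG14 measured 9.25 and 9.24 with COH29 and 8.63 and 8.68 in control for HCC1937, and 9.49 and 9.38 with COH29 and 9.00 and 8.88 in control for HCC1937+BRCA1. The groups did not overlap in either line. It rose by 0.59 ± 0.09 in HCC1937 (limma adjusted p = 0.00139) and by 0.49 ± 0.09 in HCC1937+BRCA1 (limma adjusted p = 0.00216). UVRAG, which takes the place of ATG14 in an endosomal form of the complex, rose by 0.30 ± 0.09 in HCC1937 (limma adjusted p = 0.0468) and differed by 0.25 in HCC1937+BRCA1 (limma adjusted p = 0.0711).

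The catalytic subunit PIK3C3 differed by 0.21 in HCC1937 (not called) and rose by 0.40 ± 0.10 in HCC1937+BRCA1 (limma adjusted p = 0.0116). Its regulatory partner PIK3R4 differed by -0.14 in HCC1937 (not called) and fell by 0.27 ± 0.09 in HCC1937+BRCA1 (limma adjusted p = 0.0411). BECN1, the core scaffold, was not called with COH29 in either line, at 0.15 and -0.10, nor was its regulator AMBRA1, at 0.00 and 0.09. The UVRAG call in HCC1937 ended without any of the 4 HCC1937 arrays or either HCC1937+BRCA1 COH29 replicate (limma adjusted p = 0.0642 to 0.172), and under the replicate block or the fit to the compared arrays alone (0.0617 to 0.0719). The PIK3R4 call in HCC1937+BRCA1 ended without any of the 4 arrays of that line or either HCC1937 control replicate (0.0507 to 0.224). It also ended under the median shift, cyclic loess, the replicate block and the fit to the compared arrays alone (limma adjusted p = 0.0605 to 0.193). The PIK3C3 call there ended without COH29 replicate 2 or control replicate 2 (0.0564 to 0.0756).

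Among the 6 genes that supply membrane and let it grow, WIPI1, WIPI2 and ATG2A rose in both lines and none fell. The background was 10.2% of all genes called higher in HCC1937 and 13.6% in HCC1937+BRCA1. WIPI1, a reader of phosphatidylinositol 3-phosphate, measured 10.72 and 10.79 with COH29 and 9.40 and 9.38 in control for HCC1937. The HCC1937+BRCA1 arrays gave 9.14 and 9.29 with COH29 and 8.14 and 8.11 in control. COH29 arrays lay above their controls in each line, and HCC1937+BRCA1 with COH29 did not reach HCC1937 without it. The rise was 1.37 ± 0.09 in HCC1937 (2.58-fold, limma adjusted p = 3.07e-05) and 1.09 ± 0.09 in HCC1937+BRCA1 (2.13-fold, limma adjusted p = 3.18e-05).

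ATG2A, which carries lipid into the growing membrane, measured 8.88 and 8.88 with COH29 and 8.30 and 8.30 in control for HCC1937. In HCC1937+BRCA1 it measured 9.39 and 9.49 with COH29 and 8.46 and 8.42 in control. It rose by 0.58 ± 0.08 in HCC1937 (limma adjusted p = 0.00114) and by 0.99 ± 0.08 in HCC1937+BRCA1 (limma adjusted p = 3.55e-05). Its paralog ATG2B was not called, with 0.08 in HCC1937 and -0.24 in HCC1937+BRCA1. WIPI2, which recruits ATG16L1, rose by 0.29 ± 0.09 in HCC1937 (limma adjusted p = 0.0467) and by 0.49 ± 0.09 in HCC1937+BRCA1 (limma adjusted p = 0.00292). The lipid scramblase gene ATG9A, at 0.03 and 0.17, and VMP1, which encodes an endoplasmic reticulum protein, at 0.06 and 0.23, were not called. In HCC1937 the WIPI2 call ended without any of the 4 HCC1937 arrays or either HCC1937+BRCA1 control replicate (limma adjusted p = 0.0656 to 0.231), and under the replicate block or the fit to the compared arrays alone (0.0698 to 0.0728).

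The conjugation enzymes are the largest role, with 10 genes. In HCC1937, 2 rose and 2 fell (median -0.08), and in HCC1937+BRCA1 0 rose and 5 fell (median -0.28), beside the backgrounds of 12.5% and 20.1% of all genes called lower. The fit to genes at or above the 30th percentile of level called 20.4% and 30.4% lower. ATG7, the activating enzyme for both ATG12 and the ATG8 proteins, measured 8.84 and 8.99 with COH29 and 9.41 and 9.56 in control for HCC1937. For HCC1937+BRCA1 the values were 8.88 and 8.77 with COH29 and 9.21 and 9.17 in control. Both COH29 arrays lay below both controls in each line, by 0.57 ± 0.09 in HCC1937 (limma adjusted p = 0.00284) and 0.37 ± 0.09 in HCC1937+BRCA1 (limma adjusted p = 0.0163).

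ATG4C, a protease of the family that processes ATG8 proteins, measured 8.80 and 9.02 with COH29 and 9.55 and 9.35 in control for HCC1937, and 8.80 and 8.72 with COH29 and 9.51 and 9.43 in control for HCC1937+BRCA1. It fell by 0.54 ± 0.11 in HCC1937 (limma adjusted p = 0.00676) and by 0.71 ± 0.11 in HCC1937+BRCA1 (limma adjusted p = 0.00102). No other protease of the family was called lower. ATG4B rose by 0.32 ± 0.09 in HCC1937 (limma adjusted p = 0.033) and differed by 0.19 in HCC1937+BRCA1 (not called). ATG4A, at 0.03 and -0.19, and ATG4D, at -0.16 and -0.18, were not called in either line.

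The remaining conjugation genes build the ATG12, ATG5 and ATG16L1 complex, which places ATG8 proteins on the membrane. ATG16L1 measured 7.43 and 7.53 with COH29 and 7.62 and 7.50 in control for HCC1937, where the groups overlapped. In HCC1937+BRCA1 it measured 8.06 and 8.17 with COH29 and 8.61 and 8.70 in control and fell by 0.54 ± 0.09 (limma adjusted p = 0.00178). ATG10, the enzyme that attaches ATG12 to ATG5, measured 8.44 and 8.29 with COH29 and 8.38 and 8.50 in control for HCC1937, again overlapping. HCC1937+BRCA1 arrays measured 7.48 and 7.45 with COH29 and 7.99 and 7.82 in control, and ATG10 fell by 0.45 ± 0.10 (limma adjusted p = 0.0069).

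ATG5 differed by -0.22 in HCC1937 (not called) and fell by 0.40 ± 0.10 in HCC1937+BRCA1 (limma adjusted p = 0.0166). ATG12 rose by 0.39 ± 0.09 in HCC1937 (limma adjusted p = 0.0158) and differed by 0.24 in HCC1937+BRCA1 (limma adjusted p = 0.0777). ATG3, the enzyme that hands ATG8 proteins to lipid, was not called, at 0.04 and -0.06. In HCC1937 the call of ATG4C ended without control replicate 1 (limma adjusted p = 0.0609), that of ATG4B without any of the 4 HCC1937 arrays (0.0665 to 0.14) and that of ATG12 without COH29 replicate 2 or either control replicate (0.055 to 0.108). In HCC1937+BRCA1 the call of ATG10 ended without control replicate 1 (limma adjusted p = 0.0583), that of ATG7 without COH29 replicate 2 or control replicate 1 (0.0834 to 0.0951) and that of ATG5 without COH29 replicate 2 or either control replicate (0.0553 to 0.106). After cyclic loess ATG5 and ATG7 were not called there (limma adjusted p = 0.0655 and 0.0519).

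**Figure D2:**
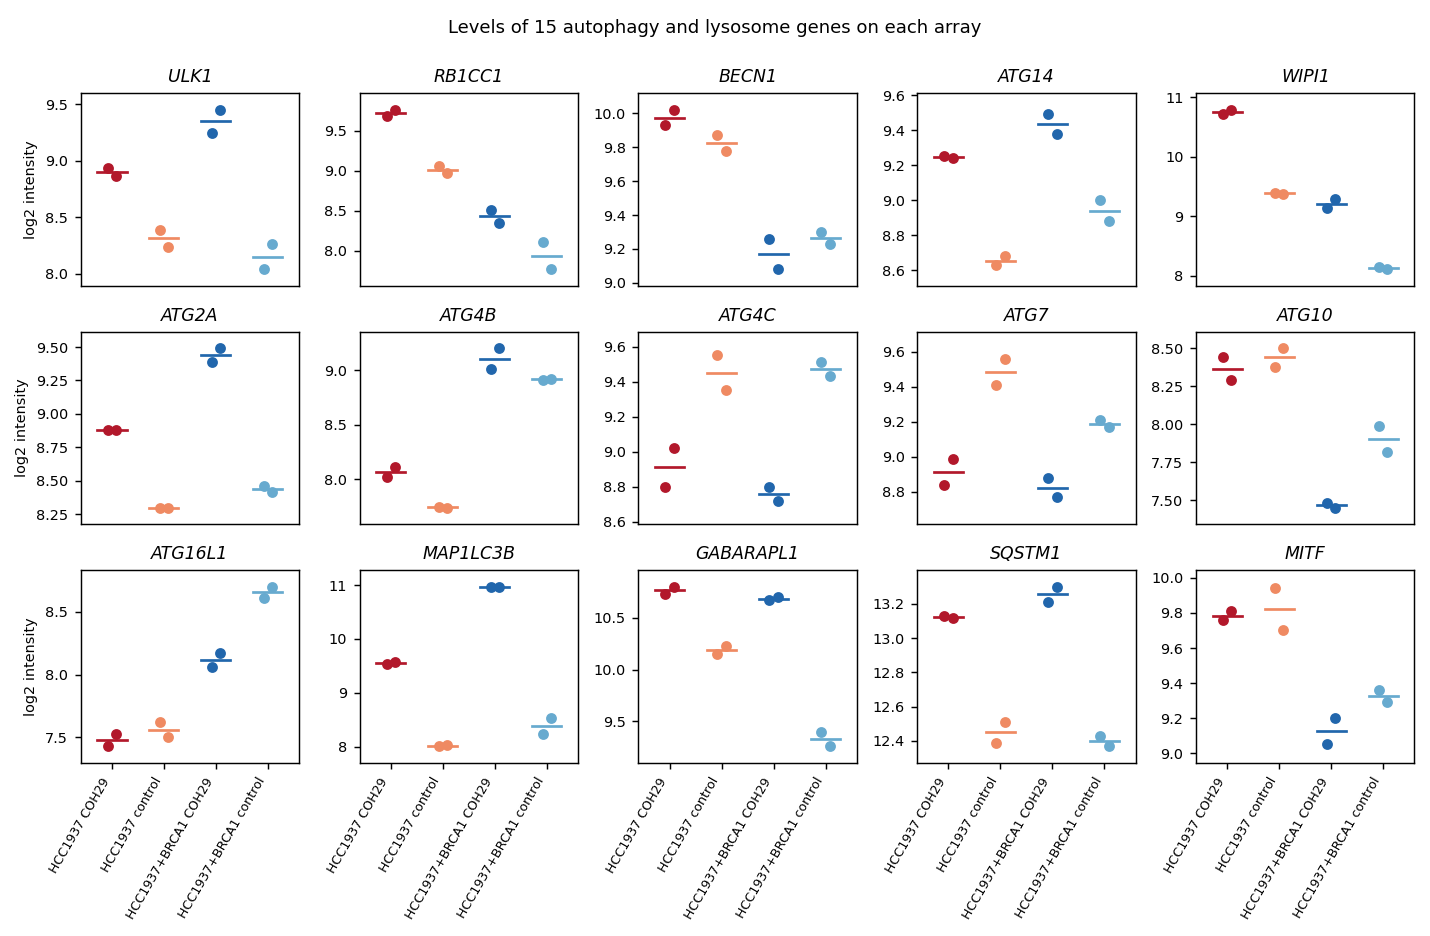
Log2 intensity on each array for the 15 genes with a called difference of at least 0.5 in any of the comparisons. Points are arrays, horizontal bars are means of 2 arrays, and each panel has its own vertical axis that does not start at 0. The COH29 arrays of MAP1LC3B sit at 9.54 and 9.57 in HCC1937 and at 10.97 and 10.97 in HCC1937+BRCA1, above all 4 control arrays.

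Of the 4 ATG8 genes, 2 rose in both lines and the other 2 were not called in either. Calls higher covered 10.2% of all genes in HCC1937 and 13.6% in HCC1937+BRCA1. Read from the probe set paired with it alone, MAP1LC3B (LC3B) had the largest rise of the 40 genes in both lines. It measured 9.54 and 9.57 with COH29 and 8.01 and 8.03 in control for HCC1937, and 10.97 and 10.97 with COH29 and 8.23 and 8.53 in control for HCC1937+BRCA1. The rise was 1.53 ± 0.10 in HCC1937 (2.89-fold, limma adjusted p = 4e-05) and 2.59 ± 0.10 in HCC1937+BRCA1 (6.02-fold, limma adjusted p = 1.34e-06). GABARAPL1, of the GABARAP branch, measured 10.73 and 10.80 with COH29 and 10.15 and 10.23 in control for HCC1937. In HCC1937+BRCA1 it measured 10.67 and 10.70 with COH29 and 9.40 and 9.26 in control. It rose by 0.57 ± 0.09 in HCC1937 (1.49-fold, limma adjusted p = 0.0017) and by 1.35 ± 0.09 in HCC1937+BRCA1 (2.55-fold, limma adjusted p = 1.25e-05).

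GABARAP, which binds many of the same partners, measured 12.34 and 12.31 with COH29 and 12.44 and 12.28 in control for HCC1937. With BRCA1 added back the values were 12.22 and 12.35 with COH29 and 12.38 and 12.29 in control, so the groups overlapped in both lines. Its difference was -0.03 in HCC1937 (95% interval -0.24 to 0.18) and -0.05 in HCC1937+BRCA1 (95% interval -0.26 to 0.16). GABARAPL2 differed by 0.12 in HCC1937 (95% interval -0.07 to 0.30) and by 0.06 in HCC1937+BRCA1 (95% interval -0.13 to 0.25), and neither gene was called.

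A second probe set reads MAP1LC3B together with its near-identical copy MAP1LC3B2 and was kept out of the test for that reason. It averaged 12.56 with COH29 and 11.3 in control for HCC1937, and 13.06 with COH29 and 11.68 in control for HCC1937+BRCA1. Fitted alongside the other genes, it rose by 1.26 ± 0.09 in HCC1937 (limma adjusted p = 5.75e-05) and by 1.38 ± 0.09 in HCC1937+BRCA1 (limma adjusted p = 1.37e-05). Its rise in HCC1937+BRCA1 was thus 1.38, where that of the MAP1LC3B probe set was 2.59. In HCC1937 its rise of 1.26 lay below the 1.37 of WIPI1. In HCC1937+BRCA1 its rise was close to the 1.35 of GABARAPL1. The rank of MAP1LC3B in HCC1937 therefore depended on the probe set read.

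The promoter windows of MAP1LC3B, WIPI1 and GABARAPL1, the genes with the largest mean rise over both lines, are shown because they rose together. Each holds the 250 bases before the gene's start in RefSeq (GRCh38.p14), 5′ to 3′ on the gene's strand: MAP1LC3B at chr16:87392086-87392335 (plus strand), GABARAPL1 at chr12:10212627-10212876 (plus strand) and WIPI1 at chr17:68457497-68457746 (minus strand). Capitals mark TGACG on either strand (CGTCA on the other strand), and TGACGTCA, which contains it. TGACGTCA is the cyclic AMP response element bound by CREB and ATF factors.
MAP1LC3B: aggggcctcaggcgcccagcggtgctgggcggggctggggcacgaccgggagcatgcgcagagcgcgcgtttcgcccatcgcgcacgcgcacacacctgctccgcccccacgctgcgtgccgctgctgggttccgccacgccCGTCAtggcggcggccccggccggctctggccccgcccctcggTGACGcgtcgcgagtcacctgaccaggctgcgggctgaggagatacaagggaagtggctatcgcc
GABARAPL1: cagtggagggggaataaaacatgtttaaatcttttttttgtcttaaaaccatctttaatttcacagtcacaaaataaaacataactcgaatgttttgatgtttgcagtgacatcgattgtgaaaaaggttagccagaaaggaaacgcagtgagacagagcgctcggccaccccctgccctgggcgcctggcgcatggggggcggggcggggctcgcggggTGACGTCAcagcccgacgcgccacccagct
WIPI1: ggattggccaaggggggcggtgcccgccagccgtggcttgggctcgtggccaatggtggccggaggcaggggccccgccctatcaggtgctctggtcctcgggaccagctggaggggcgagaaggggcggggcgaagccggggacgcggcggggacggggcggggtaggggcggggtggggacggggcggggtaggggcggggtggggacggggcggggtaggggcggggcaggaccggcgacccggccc
In the MAP1LC3B window TGACG lay 108 to 104 bases before the start on the minus strand and 65 to 61 bases before it on the plus strand. The GABARAPL1 window held the full TGACGTCA 30 to 23 bases before the start. The WIPI1 window held none of the motifs searched, and 79.6% of it was G or C, against 74.8% for MAP1LC3B and 51.6% for GABARAPL1.

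Promoter windows were found for 36 of the 40 genes, 47 windows in all, as some genes have several starts. RB1CC1, UVRAG, ATG4D and LAMP2 were not matched. TGACG on either strand was in 18 of the 47 windows (38.3%), against 21.2% of 35116 windows of all genes. The 18 included ULK1 and OPTN, which rose, ATG7 and ATG4C, which fell, and TAX1BP1 and VMP1, which were not called. TGACGTCA was in 2 windows (GABARAPL1 and MITF, 4.26%), against 1.65% of all windows. CACGTG, the E-box read by MiT/TFE and other factors, was in 3 windows (ATG14, ATG3 and LAMP1, 6.38%), against 6.34% of all. TGATGNAA, which is bound by ATF4 with a C/EBP partner, was in 0 of the 47 windows, against 3.14% of all. These matches describe the letters of the windows only.

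Cargo receptors bind ubiquitin-tagged cargo and ATG8 proteins at once. SQSTM1 (p62) measured 13.13 and 13.12 with COH29 and 12.39 and 12.51 in control for HCC1937, and 13.21 and 13.30 with COH29 and 12.43 and 12.37 in control for HCC1937+BRCA1. The groups did not overlap in either line. It rose by 0.67 ± 0.08 in HCC1937 (1.59-fold, limma adjusted p = 0.000695) and by 0.86 ± 0.08 in HCC1937+BRCA1 (1.81-fold, limma adjusted p = 9.96e-05). OPTN, a receptor for mitochondria and bacteria, rose by 0.39 ± 0.08 in HCC1937 (limma adjusted p = 0.0097) and by 0.35 ± 0.08 in HCC1937+BRCA1 (limma adjusted p = 0.0112). CALCOCO2 (NDP52) differed by 0.22 in HCC1937 (not called) and rose by 0.45 ± 0.09 in HCC1937+BRCA1 (limma adjusted p = 0.00386). Its relative TAX1BP1 was not called, at 0.07 and 0.01. The OPTN call ended in HCC1937 without COH29 replicate 2 or either control replicate (limma adjusted p = 0.0508 to 0.0707), and in HCC1937+BRCA1 without COH29 replicate 1 or control replicate 1 (0.0592 to 0.072).

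Among the 5 genes of the lysosomal step none was called higher with COH29, against 10.2% of all genes in HCC1937 and 13.6% in HCC1937+BRCA1. With 5 genes, none called higher cannot be told apart from those shares. The abundant membrane glycoproteins LAMP1, at 0.15 and 0.15, and LAMP2, at 0.06 and 0.24 in HCC1937 and HCC1937+BRCA1, were not called with COH29. TFEB, the MiT/TFE factor best known for switching on lysosomal genes, measured 7.39 and 7.29 with COH29 and 7.69 and 7.66 in control for HCC1937. In HCC1937+BRCA1 it measured 7.45 and 7.31 with COH29 and 7.71 and 7.66 in control. It fell by 0.34 ± 0.09 in HCC1937 (limma adjusted p = 0.0238) and by 0.31 ± 0.09 in HCC1937+BRCA1 (limma adjusted p = 0.0238). Its signal stood at percentile 41 to 47.3 of all genes, and whether that is above background was not tested. These factors are controlled largely by their move into the nucleus, which RNA arrays do not measure.

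TFE3, at -0.15 and -0.19, was not called. MITF measured 9.76 and 9.81 with COH29 and 9.94 and 9.70 in control for HCC1937, and 9.05 and 9.20 with COH29 and 9.36 and 9.29 in control for HCC1937+BRCA1. Its differences of -0.04 and -0.20 were not called. The TFEB call ended in HCC1937 without COH29 replicate 2 or either control replicate (limma adjusted p = 0.0962 to 0.121), and in HCC1937+BRCA1 without COH29 replicate 2 or either control replicate (0.0598 to 0.137) or under the median shift (0.0643).

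Whether COH29 acted differently in the lines was tested as the effect in HCC1937 minus the effect in HCC1937+BRCA1. Of the 40 genes, 2 were called, MAP1LC3B and GABARAPL1, both lower in HCC1937, and 0 were higher. The background was 0.956% of all genes called, 0.413% higher and 0.543% lower, and 2.72% in the fit to genes at or above the 30th percentile of level (1.46% higher and 1.26% lower), where 2 of the 40 were called. The difference was -1.06 ± 0.15 for MAP1LC3B (95% interval -1.39 to -0.72, limma adjusted p = 0.0169) and -0.78 ± 0.12 for GABARAPL1 (95% interval -1.06 to -0.50, limma adjusted p = 0.0278). For MAP1LC3B, HCC1937 minus HCC1937+BRCA1 was -1.42 with COH29 and -0.36 without it. GABARAPL1 showed the opposite arrangement, with a line difference of 0.08 with COH29 and 0.86 without it.

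Both calls rest on all arrays of HCC1937 and on the COH29 arrays of HCC1937+BRCA1: without any 1 of these 6, neither gene was called, with limma adjusted p = 0.061 to 0.0852 for MAP1LC3B. GABARAPL1 also lost its call without either HCC1937+BRCA1 control replicate, and its adjusted p over the 8 arrays left out ran between 0.0615 and 0.128. With the replicate number as a block GABARAPL1 was not called (limma adjusted p = 0.0584). The probe set shared with MAP1LC3B2 gave a difference of effects of -0.12 ± 0.13 (limma adjusted p = 0.765). Whether a difference was called for MAP1LC3B thus depended on the probe set read.

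The other 38 differences of effects ran between -0.61 and 0.46, none called. The lowest was that of ULK1, -0.61 ± 0.16 (95% interval -0.96 to -0.26, limma adjusted p = 0.128), followed by ATG2A at -0.42 (limma adjusted p = 0.15). On the positive side stood ATG16L1 at 0.46 (limma adjusted p = 0.16), ATG10 at 0.37 (0.293) and ATG2B at 0.33 (0.297). WIPI1 differed by 0.27 (limma adjusted p = 0.388), RB1CC1 by 0.22 (0.662) and SQSTM1 by -0.18 (0.586).

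**Figure D3:**
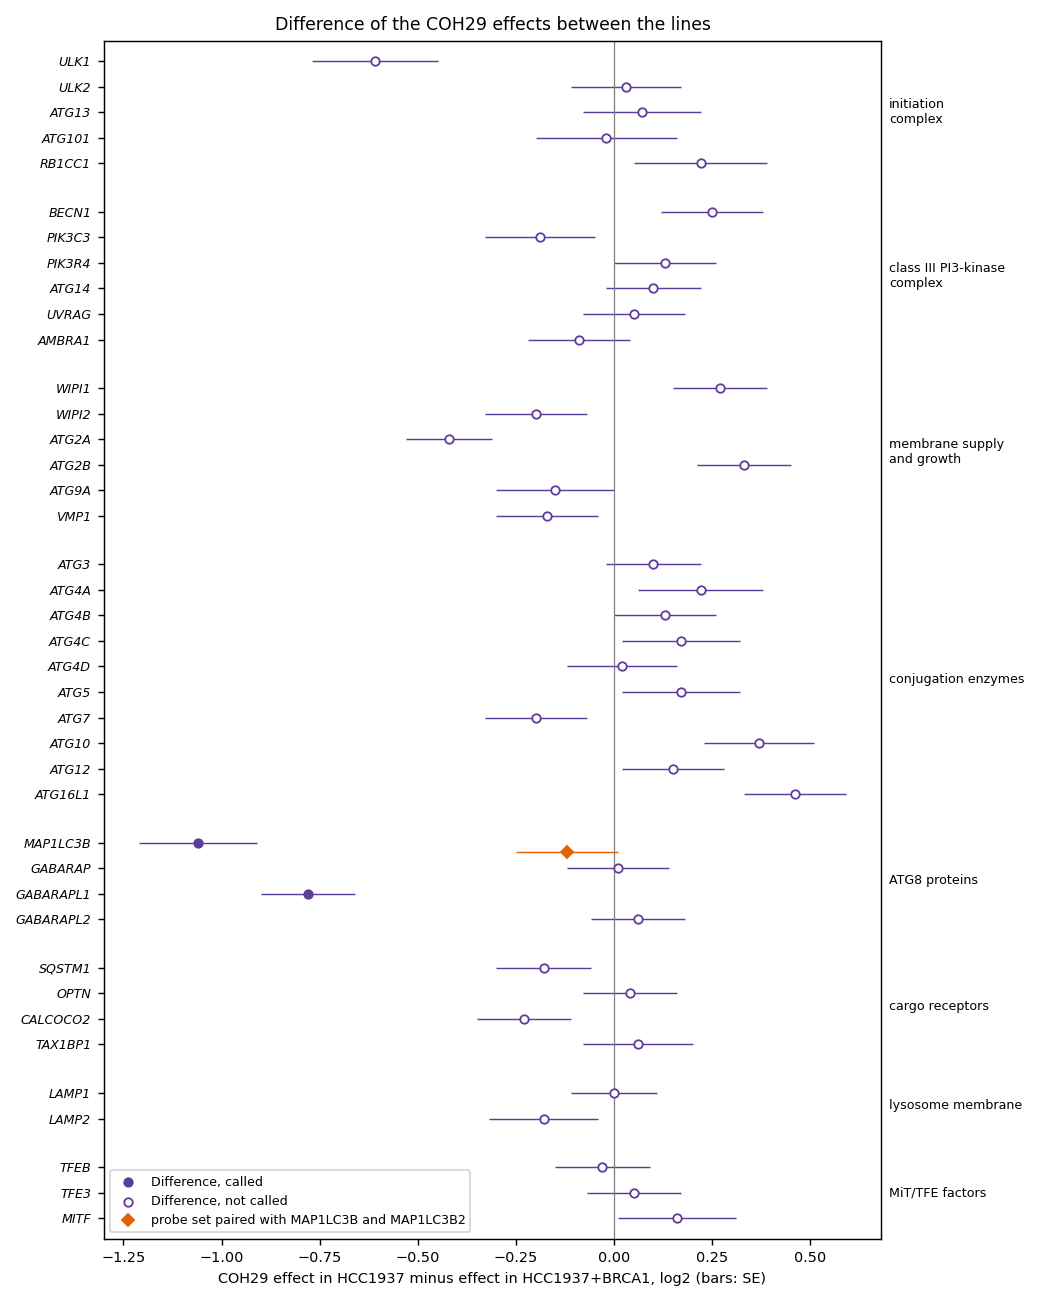
Difference of the COH29 effects, HCC1937 minus HCC1937+BRCA1, on the log2 scale for the 40 genes, by role, with standard errors. Filled points were called (limma adjusted p under 0.05), and the orange diamond is the probe set shared by MAP1LC3B and MAP1LC3B2. The MAP1LC3B and GABARAPL1 points lie at -1.06 and -0.78, while the diamond lies at -0.12.

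Without COH29, the lines already differed in many genes, both among these 40 and among all genes. HCC1937 was higher than HCC1937+BRCA1 in 11 and lower in 6 of the 40, against a background of 31.2% called, 14.8% higher and 16.4% lower. The fit to genes at or above the 30th percentile called 44.4% of them (21.3% higher and 23.2% lower) and, of the 40, 11 higher and 8 lower. In that fit the called share of the 40 genes was close to the background. The genes higher in HCC1937 were WIPI1, RB1CC1, GABARAPL1, BECN1, ATG10, MITF, ATG12, LAMP2, LAMP1, ATG7 and CALCOCO2. The 6 lower genes were ATG4B, ATG16L1, PIK3C3, MAP1LC3B, ATG4A and ATG14. Calls higher in HCC1937 became 5 without HCC1937 control replicate 1 and 6 without HCC1937+BRCA1 control replicate 2, and calls lower became 3 without either HCC1937 control replicate.

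WIPI1 had the largest excess in HCC1937, 1.27 ± 0.09 (2.41-fold, limma adjusted p = 8.18e-06), and the difference of means was 1.54 with COH29. RB1CC1 was higher by 1.07 ± 0.12 (limma adjusted p = 0.000162) and GABARAPL1 by 0.86 ± 0.09 (limma adjusted p = 9.07e-05). BECN1 measured 9.93 and 10.02 with COH29 and 9.87 and 9.78 in control for HCC1937, and 9.26 and 9.08 with COH29 and 9.30 and 9.23 in control for HCC1937+BRCA1. All 4 HCC1937 arrays lay above all 4 HCC1937+BRCA1 arrays, and the control groups differed by 0.56 ± 0.09 (limma adjusted p = 0.00172). ATG10 was higher by 0.53 ± 0.10 (limma adjusted p = 0.00277) and MITF by 0.50 ± 0.10 (limma adjusted p = 0.00546).

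ATG4B, the main ATG8 protease, measured 8.02 and 8.11 with COH29 and 7.75 and 7.74 in control for HCC1937. HCC1937+BRCA1 cells gave 9.01 and 9.20 with COH29 and 8.91 and 8.92 in control, again with no overlap between the lines. In control cells it was lower in HCC1937 by 1.17 on the log2 scale (-1.17 ± 0.09, 2.25-fold lower, limma adjusted p = 1.84e-05). ATG16L1 was lower too, at -1.09 ± 0.09 (limma adjusted p = 2.64e-05), as was PIK3C3, at -0.48 ± 0.10 (limma adjusted p = 0.00444). MAP1LC3B, ATG4A and ATG14 had smaller differences of -0.36, -0.34 and -0.29 (limma adjusted p = 0.0269, 0.0447 and 0.0317).

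The smaller excesses in HCC1937 were ATG12 (0.37), LAMP2 (0.36), LAMP1 (0.35), ATG7 (0.30) and CALCOCO2 (0.28), with limma adjusted p between 0.00894 for LAMP1 and 0.041 for ATG7. Leaving out 1 array ended 9 of the 17 calls. MITF was lost without HCC1937 control replicate 1 (limma adjusted p = 0.0523), LAMP1 without that array or HCC1937+BRCA1 control replicate 2 (0.0515 to 0.0645) and ATG12 without HCC1937 control replicate 1 or either HCC1937+BRCA1 control replicate (0.0553 to 0.0926). LAMP2, CALCOCO2 and MAP1LC3B were lost without either HCC1937 control replicate or HCC1937+BRCA1 control replicate 2 (0.0625 to 0.148, 0.117 to 0.2 and 0.0983 to 0.18). ATG14 was lost without either HCC1937 control replicate or HCC1937+BRCA1 control replicate 1 (0.101 to 0.189), ATG7 without any of the 4 control arrays (0.061 to 0.244), and ATG4A without any array except HCC1937+BRCA1 control replicate 2 (0.0551 to 0.302). Under the replicate block ATG7, ATG4A and CALCOCO2 were not called, nor were ATG4A, MAP1LC3B and CALCOCO2 in the fit to the compared arrays alone or ATG4A after cyclic loess (limma adjusted p = 0.0521 to 0.0769).

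**Figure D4:**
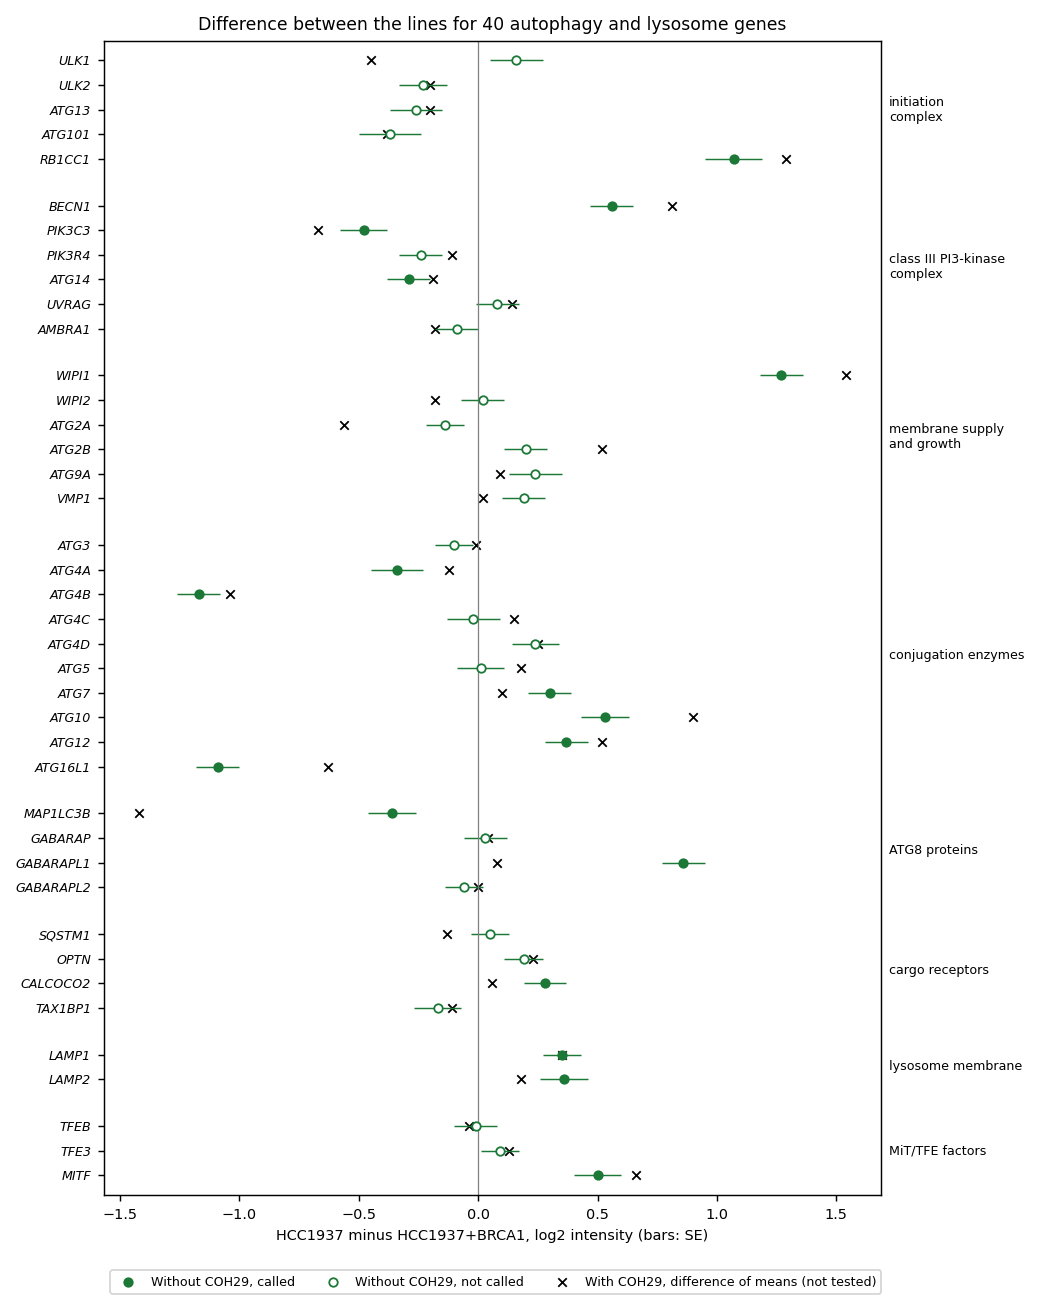
Difference in log2 intensity between HCC1937 and HCC1937+BRCA1 for the 40 genes. Circles are control arrays, with standard errors, filled where called (limma adjusted p under 0.05), and crosses are differences of means with COH29, which were not tested. WIPI1 and RB1CC1 lie at 1.27 and 1.07 without COH29, ATG4B and ATG16L1 at -1.17 and -1.09, and the MAP1LC3B cross lies at -1.42.

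Further genes of the pathway were read from 6 lists chosen by function. For comparison, 22.7% of all genes were called in HCC1937 (10.2% higher and 12.5% lower) and 33.6% in HCC1937+BRCA1 (13.6% higher and 20.1% lower), with a median of 0.04 in each. Among 18 other autophagy core genes, 6 rose and 0 fell in HCC1937 (median 0.17), and 6 rose and 2 fell in HCC1937+BRCA1 (median 0.04). NRBF2, which binds the ATG14 form of the lipid kinase complex, rose by 0.68 in HCC1937 (limma adjusted p = 0.00156) and 1.18 in HCC1937+BRCA1 (limma adjusted p = 4.84e-05). PLEKHM1, a lysosomal tether, rose by 0.46 and 0.49 (limma adjusted p = 0.00445 and 0.00204) and EPG5, which also tethers autophagosomes, by 0.46 and 0.36 (0.0137 and 0.029). The fusion protein gene SNAP29 rose by 0.41 in HCC1937 (limma adjusted p = 0.0123) and differed by 0.22 in HCC1937+BRCA1 (not called).

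Of 12 other cargo receptors 11 were measured, with 4 higher and 2 lower in HCC1937 (median 0.18) and 3 higher and 3 lower in HCC1937+BRCA1 (median 0.04). The mitophagy receptor gene BNIP3, a known hypoxia target, had the largest rise, 2.21 in HCC1937 and 1.74 in HCC1937+BRCA1 (limma adjusted p = 3.62e-06 and 4.59e-06). Its paralog BNIP3L rose by 0.92 and 0.86 (limma adjusted p = 0.00014 and 8.65e-05). NBR1, a relative of SQSTM1, rose by 0.44 and 0.52 (limma adjusted p = 0.0215 and 0.00632), whereas the mitophagy receptor gene FUNDC1 differed by -0.43 and -0.66 (0.025 and 0.00197). RETREG1 (FAM134B), a receptor for the endoplasmic reticulum singled out after its values were seen, was the single gene of the 6 lists called in the difference of effects, at 0.79 ± 0.14 (limma adjusted p = 0.0401). That call ended without any 1 of the 8 arrays (limma adjusted p = 0.0742 to 0.17), and under cyclic loess or the replicate block (0.0517 to 0.0707). RETREG1 rose by 0.50 in HCC1937 (limma adjusted p = 0.00581, and 0.0553 without control replicate 2) and differed by -0.28 in HCC1937+BRCA1 (limma adjusted p = 0.0517).

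The called share of lysosomal hydrolases was 15.6% in HCC1937 and 28.1% in HCC1937+BRCA1, against 22.7% and 33.6% of all genes. Of the 32 measured, 4 rose and 1 fell in HCC1937 (median 0.06), and 8 rose and 1 fell in HCC1937+BRCA1 (median 0.05). Under other processing settings up to 8 rose in HCC1937, and up to 11 rose and up to 4 fell in HCC1937+BRCA1. The sialidase gene NEU1 rose by 1.00 and 0.70 (limma adjusted p = 0.000178 and 0.000574), the alpha-galactosidase gene GLA by 0.88 and 0.63 (0.000198 and 0.000603) and the protease gene LGMN by 0.68 and 0.58 (0.000909 and 0.0012) in HCC1937 and HCC1937+BRCA1. The cathepsin gene CTSS differed by -0.47 and -0.52 (limma adjusted p = 0.0209 and 0.00901).

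Of 17 genes for lysosomal membrane proteins and the lumenal cholesterol carrier NPC2, 8 rose and 1 fell in HCC1937 (median 0.07), and 7 rose and 1 fell in HCC1937+BRCA1 (median 0.09). NPC1, which exports cholesterol, rose by 1.35 and 1.31 (limma adjusted p = 4e-05 and 1.66e-05) and the cystine exporter gene CTNS by 0.99 and 0.90 (0.000144 and 0.000102). TMEM192, of the lysosomal membrane, rose by 0.76 and 0.29 (limma adjusted p = 0.000468 and 0.0314), and the sialic acid exporter gene SLC17A5 differed by -0.46 and -0.85 (0.00578 and 0.000128).

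Vacuolar ATPase subunits, which acidify the lysosome, had 12.5% of genes called in each line, against 22.7% of all genes in HCC1937 and 33.6% in HCC1937+BRCA1. Of 16, 2 rose and 0 fell in HCC1937 (median 0.14), and 1 rose and 1 fell in HCC1937+BRCA1 (median 0.03). Each share thus rests on 2 called genes, and whether it differs from the background was not tested. Under other processing settings up to 5 rose in HCC1937. In HCC1937+BRCA1 up to 6 rose and up to 3 fell under such settings. ATP6V1B2 rose by 0.41 and 0.37 (limma adjusted p = 0.0221 and 0.0232). ATP6V1D rose by 0.52 in HCC1937 (limma adjusted p = 0.0033) and differed by 0.21 in HCC1937+BRCA1 (not called). ATP6V0A2 differed by -0.17 in HCC1937 (not called) and fell by 0.43 in HCC1937+BRCA1 (limma adjusted p = 0.0309).

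Of 15 regulators of MiT/TFE factors 14 were measured, with 3 higher and 1 lower in HCC1937 (median 0.13) and 4 higher and 2 lower in HCC1937+BRCA1 (median 0.09). RRAGC, a GTPase that holds TFEB at the lysosome, rose by 0.78 and 0.67 (limma adjusted p = 0.000408 and 0.00048). FNIP2, a partner of the folliculin tumour suppressor, rose by 0.70 in HCC1937 (limma adjusted p = 0.00176) and differed by 0.31 in HCC1937+BRCA1 (limma adjusted p = 0.0512). PPP3CB, a catalytic subunit of the phosphatase calcineurin, differed by -0.87 and -0.79 (limma adjusted p = 0.000757 and 0.000688). The transcription factor gene FOXO3 differed by 0.22 in HCC1937 (not called) and rose by 0.77 in HCC1937+BRCA1 (limma adjusted p = 0.00326).

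Several list counts moved by more than 1.5 times with single arrays. Genes called higher in HCC1937 among the other autophagy core genes became 3, 3, 3 and 2 without COH29 replicate 1, COH29 replicate 2, control replicate 1 and control replicate 2. In HCC1937+BRCA1 that count became 3 without either COH29 replicate or control replicate 1. Lysosomal membrane genes called higher in HCC1937 became 5 without either COH29 replicate and 4 without either control replicate. Other cargo receptors called higher in HCC1937 became 2 without control replicate 2. Hydrolases called higher in HCC1937+BRCA1 became 5 without either COH29 replicate or control replicate 1, and regulators of MiT/TFE factors became 2 without COH29 replicate 2. Counts of 1 or 2 genes moved by 1 or more genes without single arrays in the autophagy core, cargo receptor, hydrolase and vacuolar ATPase lists.

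Of the list genes named, SNAP29, EPG5, NBR1, FUNDC1, CTSS and ATP6V1B2 lost their call in HCC1937 without 1 or more single HCC1937 arrays, with limma adjusted p up to 0.165. In HCC1937+BRCA1 the calls of EPG5, NBR1, CTSS, TMEM192, ATP6V0A2 and ATP6V1B2 ended without 1 or more single arrays of that line, with adjusted p up to 0.159. TMEM192 also lost its call there without either HCC1937 control replicate or in the fit to the compared arrays alone (limma adjusted p = 0.0635 in that fit). After cyclic loess EPG5 was not called (0.0532), and ATP6V0A2 was not called after it or under the median shift (0.0583 to 0.11).

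**Figure D5:**
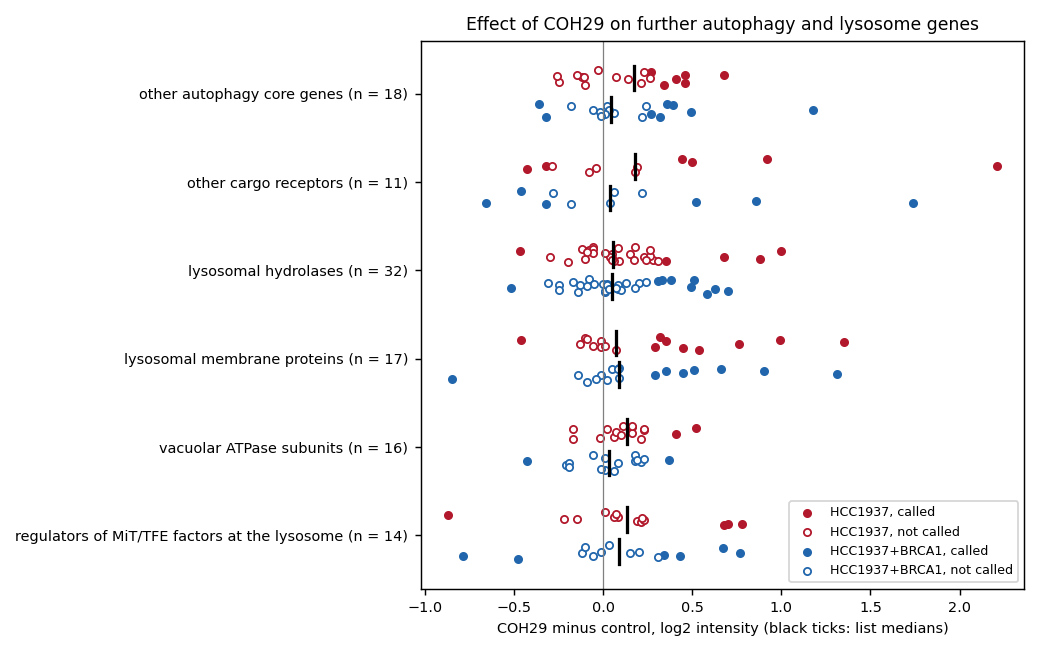
Difference in log2 intensity between COH29 and control arrays for the genes of 6 further lists, in HCC1937 (red, upper row) and HCC1937+BRCA1 (blue, lower row). Each point is 1 gene, filled where called (limma adjusted p under 0.05), and black ticks are list medians, which lie between 0.03 and 0.18. BNIP3 is the point farthest right, at 2.21 in HCC1937 and 1.74 in HCC1937+BRCA1.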

How the data were processed

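RNA of the 4 groups was labelled with biotin and hybridised to 8 Affymetrix arrays. The authors deposited log2 intensities of 33297 probe sets, and the submitters' processing notes name RMA and Partek without versions. RMA corrects background, equalises the arrays and summarises probes on the log2 scale, which can shrink differences between arrays. Ranked values of any pair of arrays lay within 0.297 of each other. No genome build for the array values is given in the labels, and scanner files and detection values were not used. Promoter windows came from RefSeq on GRCh38.p14, matched by symbol.

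The platform annotation named the probe sets (19460 with 1 gene, 1754 with several, 12083 with none). Those with 1 gene were kept, and the highest mean per gene gave 18417 genes, 769 of them with several probe sets. ATG2B and ATG4B had 2 each.

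With limma 3.58.1 (R 4.3.3), lmFit and eBayes fitted the 4 group means over the 8 arrays together, leaving 4 residual degrees of freedom. The comparisons were COH29 minus control within each line, HCC1937 minus HCC1937+BRCA1 for that effect, and HCC1937 control minus HCC1937+BRCA1 control. Calls used a Benjamini-Hochberg adjusted p under 0.05. The fit was tested on simulated data. The number of arrays limits precision. Python 3.11.15 with pandas 2.3.3 made the tables, and matplotlib 3.10.9 drew the figures.

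The 40 genes and the further lists were chosen with earlier results of these data known. Arrays are given singly for genes with a called difference of at least 0.5, and a few others. From each further list the 4 called genes with the largest COH29 effect are named. Some listed genes are not reported here.

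Deviations of same-numbered replicates had a correlation between COH29 and control of 0.037 in HCC1937 and 0.26 in HCC1937+BRCA1. Between the lines the correlations ran from -0.204 to -0.086. The main fit did not use the numbers as pairs. Alternatives were a filter on dim genes, a median shift, cyclic loess, a trended and robust eBayes, a replicate block, averaged probe sets per gene, a fit to the compared arrays alone, and each array left out in turn. A crossed block and the probe set shared with MAP1LC3B2 were added after seeing the data.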

Additional observations from a re-analysis of the deposited data

Results flagged for a closer look

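The effect of COH29 on MAP1LC3B in HCC1937 minus that in HCC1937+BRCA1 was -1.06 on the log2 scale. On the MAP1LC3B probe set this passed the test of the difference itself. The probe set shared with MAP1LC3B2 gave -0.12 and did not pass (limma adjusted p = 0.765). For GABARAPL1 the difference of effects was -0.78 and passed. Neither call was kept under every alternative. The remaining 38 genes did not pass the test.

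A probe set that reads both MAP1LC3B and MAP1LC3B2, which stayed out of the comparisons, also carried signal above the control arrays. With COH29 it rose by 1.26 in HCC1937 and by 1.38 in HCC1937+BRCA1.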

How the results depend on the processing

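No member changed direction with a call under any alternative: of the values recomputed for single genes, 2360 kept their side of the threshold, 117 lost a call, 47 gained one and 0 reversed. Calls kept under every alternative numbered 9 of 16 for COH29 in HCC1937, 11 of 20 in HCC1937+BRCA1, 0 of 2 for the difference of effects and 8 of 17 between control lines. When 1 array was left out, COH29 counts in HCC1937 ran between 8 and 12 higher and 1 and 3 lower, and in HCC1937+BRCA1 between 10 and 12 higher and 2 and 8 lower. The difference of effects gave 0 higher throughout and 0 to 1 lower, and the control lines gave 5 to 11 higher and 3 to 6 lower. In HCC1937+BRCA1, 5 genes were lower after the median shift, and 19 were higher and 5 lower after cyclic loess. The cause was not tested. With the replicate number as a block, the difference of effects had 1 gene lower, MAP1LC3B. That replicate block gave 11 higher and 3 lower in HCC1937, 13 and 6 in HCC1937+BRCA1, and 9 and 6 between control lines. With numbers crossed between the lines (added after seeing the data) the counts were 13 and 4, 14 and 9, and 12 and 6, and 0 and 2 for the difference. Over all alternatives on the same probe set the adjusted p of the difference ran between 0.000273 and 0.0852 for MAP1LC3B and between 0.000469 and 0.128 for GABARAPL1. With 2 arrays per group and 4 residual degrees of freedom, small differences could not be resolved.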
